A study of Mus musculus with 6 samples.

Results

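The Nodal, Lefty and activin signalling genes comprised 10 named genes: the ligands Nodal, Gdf3, Inhba and Inhbb, the secreted inhibitors Lefty1, Lefty2 and Fst, the activin receptor gene Acvr2b, the co-receptor gene Tdgf1, and the signal transducer gene Smad3. They were taken by name, through every array probe set whose platform annotation gives that 1 symbol. This gave 19 of the 45037 probe sets tested, with 1 probe set for 3 genes, 2 for 5 genes and 3 for 2 genes. RNA came from E14TG2a, a mouse embryonic stem (ES) cell line kept on gelatin, in medium with serum or a serum replacement. The 3 differentiating samples were grown for 3 days without leukaemia inhibitory factor (LIF) and sorted as 5T4-positive. The 3 undifferentiated samples were kept in medium with 1000 units of LIF per ml, and their 5T4-negative cells were sorted. LIF withdrawal and the 5T4 sort therefore changed together and cannot be told apart, and all samples came from 1 cell line. The sources used here do not say that the numbered replicates were separate cultures, so p-values measure the spread between these samples, which may be technical. Values are RMA values, a background-corrected and normalized summary of each probe set on the log2 scale.

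Nodal and activins are secreted dimers of the TGF-beta superfamily. They bind a pair of type II and type I receptors, and the type I receptor phosphorylates SMAD2 and SMAD3, which enter the nucleus with SMAD4 and act with partners such as FoxH1. Nodal and Gdf3 need the membrane-anchored co-receptor encoded by Tdgf1 (Cripto), activins do not. Lefty proteins block Nodal and are themselves induced by it, and follistatin, the product of Fst, binds activins. In the mouse epiblast this pathway is known for its part in axis formation and in maintaining the primed pluripotent state.

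The labelled cell states were checked against marker genes. Of 9 pluripotent cell markers, 3 were lower in differentiating cells (Pou5f1, Sox2 and Klf4) and the other 6 did not pass. The paper had already reported these passing markers as lower on the same arrays, so their result is not an independent check of the labels. The marker lists were also chosen with earlier results of these data known. Of 6 measured primed epiblast markers, 3 were higher (Fgf5, Zic2 and Sall2) and 3 did not pass. Below an unadjusted p of 0.05 and with groups apart were 8 of the 9 pluripotent markers (lower) and all 6 primed epiblast markers (higher). Of all genes 17.2% were below that p, and groups were apart, lower at 10.3% and higher at 10% of all probe sets. In each list, 4 genes passed at 1 or more of their probe sets. The mean level of the pluripotent markers was 9.54 to 10.88 on the differentiating and 11.74 to 12.24 on the undifferentiated arrays. Of the markers of other cell types, none of 6 measured primitive streak and mesoderm genes passed. Among 7 trophectoderm genes 1 was lower (Tfap2c, log2 fold change -2.84). Of the 7, 4 had log2 fold changes above 0 and 3 below, and Krt18 (1.57) and Krt8 (1.49) were the largest above, with overlapping groups. On undifferentiated replicate 2 they read 12.66 and 12.54, and its trophectoderm marker level, 7.86, was the highest of the 6 arrays. Among 5 neuroectoderm genes 1 was higher (Zfp521, 2.17), and 1 had a log2 fold change below 0 (Pax6, -1.13, with overlapping groups). Zfp521 and Nes (1.18, not passing) were higher on every differentiating array and below an unadjusted p of 0.05, which makes 2 of the 5. Tpbg, the gene of 5T4, did not pass (log2 fold change 1.27 at the brightest probe set, adjusted p = 0.22 from limma), and there undifferentiated replicate 2, at 6.76, lay above differentiating replicate 1, at 6.71. Its other probe sets had every differentiating array above every undifferentiated one, with differences of 1.39 (adjusted p = 0.118 from limma) and 0.38 (adjusted p = 0.237) on the log2 scale. Differentiating replicate 1 also had the highest pluripotent marker level of its group (10.88).

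Among the 10 genes, 1 passed the test, Inhbb, which encodes the beta-B subunit of activin and fell 14.4-fold at 1 of its 2 probe sets. Lefty1 had the largest difference in the other direction, 2.83-fold higher in differentiating cells, and did not pass. Nodal, Inhba, Smad3 and Acvr2b each had a probe set on which every differentiating array lay above every undifferentiated array, with differences of 0.46 to 0.59 on the log2 scale that did not pass either. Tdgf1 was lower by a similar amount, without passing, and Gdf3 differed by less than the spread between replicates. The other probe sets of Nodal, Inhba, Smad3 and Acvr2b had overlapping groups, and the separated one of Acvr2b was not its brightest. Of all probe sets, 10% had every differentiating array above every undifferentiated array. In bulk samples, fewer cells with a transcript and less of it per cell cannot be told apart.

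In numbers, 1 of the 19 probe sets was lower at an adjusted p under 0.1 (limma, Benjamini-Hochberg over all probe sets), against 1.03% of all probe sets, and 0 were higher, against 0.573%. At an unadjusted p under 0.05 there were 7 of 19, of which 5 were higher and 2 lower, against 13.7% of all probe sets. At these same 7 no array of one group lay within the range of the other, 5 with the differentiating arrays above, against 10% of all probe sets, and 2 with them below, against 10.3%. The median log2 fold change was 0.42 over the 19 probe sets and 0.03 over all probe sets tested. The 19 are not independent, since 7 of the genes have 2 or 3 of them.

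**Figure D1:**
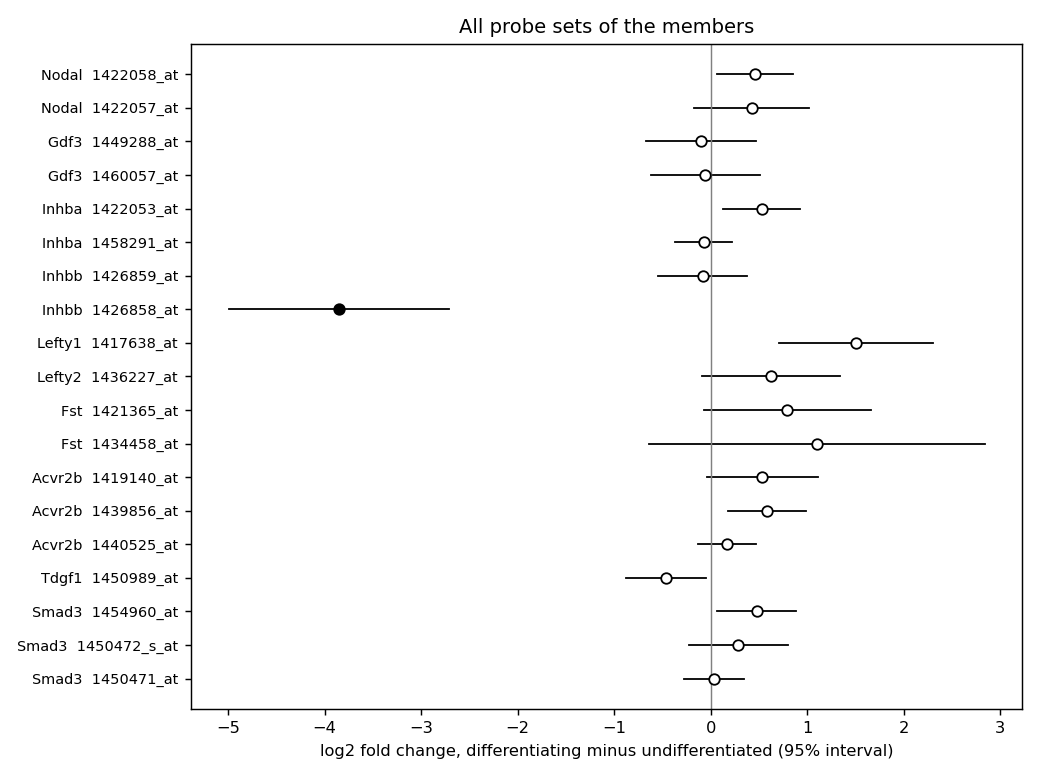
Log2 fold change (horizontal axis, differentiating minus undifferentiated) of each of the 19 probe sets (vertical axis, gene and probe set), with its 95% interval from limma as a line; the filled point has an adjusted p under 0.1 and open points do not. Inhbb 1426858_at stands alone at -3.85, while the intervals of 5 other probe sets lie above 0 and that of Tdgf1 lies below it.

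Activin B is a dimer of beta-B subunits and activin A of beta-A subunits, encoded by Inhbb and Inhba. At Inhbb probe set 1426858_at the undifferentiated arrays read 7.64, 7.43 and 8.68 and the differentiating arrays 5.04, 3.50 and 3.66, in replicate order. The groups did not overlap, and the smallest gap between them was that from differentiating replicate 1. The log2 fold change was -3.85 (standard error 0.48, 95% interval -5.00 to -2.71, adjusted p = 0.0462 from limma), or 14.4-fold lower. Differentiating replicates 2 and 3 lay under 4.54, the upper bound of the dimmest 1 in 3 probe sets by mean, in a table without detection calls, so the fold can understate the change. The call was lost without differentiating replicate 2 (log2 fold change -3.57, adjusted p = 0.27), differentiating replicate 3 (-3.65, adjusted p = 0.221) or undifferentiated replicate 3 (-3.47, adjusted p = 0.204). Those 3 fits passed hardly any probe set of the array (0, 3 and 1, all lower), so the lost call is not particular to Inhbb. Over 14 alternatives the adjusted p ran from 0.0021 to 0.27, and the decrease kept its direction in all of them.

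The other Inhbb probe set, 1426859_at, did not show this. Its differentiating arrays read 6.46, 6.04 and 5.85 and its undifferentiated arrays 6.10, 6.04 and 6.46, so the groups overlapped. Its log2 fold change was -0.08 (95% interval -0.55 to 0.38, adjusted p = 0.894 from limma). The difference between both probe sets on the same array, 1426859_at minus 1426858_at, was 1.43, 2.53 and 2.20 in differentiating cells and -1.53, -1.39 and -2.23 in undifferentiated cells. These ranges did not overlap (exact two-sided permutation p = 0.1, the smallest that 3 against 3 arrays can give, and 0.45 after adjustment over 9 such comparisons). With that floor, the permutation test could not give a p under 0.1 at any size of difference. The place of each probe set on the transcript was not analysed here, so the decrease holds for what 1426858_at detects.

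Inhba gave smaller differences. At its brighter probe set, 1422053_at, the differentiating arrays read 6.08, 5.63 and 5.92 and the undifferentiated arrays 5.43, 5.50 and 5.11. The lowest differentiating array was 5.63, just above the highest undifferentiated array, 5.50. A difference of 0.53 on the log2 scale (95% interval 0.13 to 0.93) failed the test (adjusted p = 0.237 from limma). Its second probe set, 1458291_at, lay between 4.30 and 4.62 on all arrays, around the bound of the dimmest 1 in 3 probe sets, with a log2 fold change of -0.07 (95% interval -0.37 to 0.22). The gap between both Inhba probe sets was wider on every differentiating array (1.18 to 1.62) than on any undifferentiated one (0.49 to 1.00), again at the smallest p that 3 against 3 arrays allow (exact permutation p = 0.1, 0.45 adjusted). Most of the wider gap is the difference at 1422053_at given above, since 1458291_at hardly changed.

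**Figure D2:**
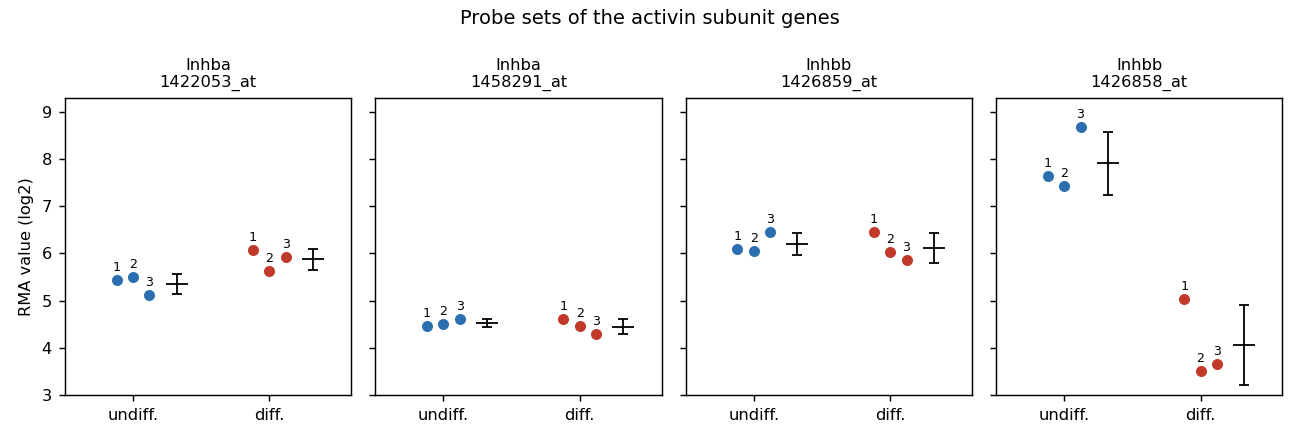
RMA values (log2, vertical axis, the same scale in all panels) of both probe sets of Inhba and of Inhbb on each array, undifferentiated in blue and differentiating in red; small numbers name the replicates, and the black mark beside each group gives its mean with the SD (n = 3). The groups are far apart at Inhbb 1426858_at, with 7.43 as the lowest undifferentiated and 5.04 as the highest differentiating value, and overlap at Inhbb 1426859_at and Inhba 1458291_at.

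The start of Inhbb is shown because this gene alone passed, beside those of Tdgf1, the other gene with all differentiating arrays below all undifferentiated arrays, and Nodal. Each is the 250 bases before the annotated start, 5′ to 3′, from RefSeq (GRCm38.p6). They lie at chr1:119422249-119422498 on the minus strand for Inhbb, chr9:110946159-110946408 on the minus strand for Tdgf1 and chr10:61417722-61417971 on the plus strand for Nodal. Capitals mark matches to CAGAC, the short SMAD motif, on either strand.
Inhbb: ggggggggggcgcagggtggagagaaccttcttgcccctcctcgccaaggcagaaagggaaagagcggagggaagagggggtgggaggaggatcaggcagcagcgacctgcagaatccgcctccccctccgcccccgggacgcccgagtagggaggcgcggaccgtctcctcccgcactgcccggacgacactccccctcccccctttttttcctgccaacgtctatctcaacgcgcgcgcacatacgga
Tdgf1: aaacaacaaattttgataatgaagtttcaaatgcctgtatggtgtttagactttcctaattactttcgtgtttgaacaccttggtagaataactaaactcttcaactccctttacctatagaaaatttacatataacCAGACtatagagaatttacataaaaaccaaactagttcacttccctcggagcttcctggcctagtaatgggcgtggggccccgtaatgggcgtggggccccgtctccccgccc
Nodal: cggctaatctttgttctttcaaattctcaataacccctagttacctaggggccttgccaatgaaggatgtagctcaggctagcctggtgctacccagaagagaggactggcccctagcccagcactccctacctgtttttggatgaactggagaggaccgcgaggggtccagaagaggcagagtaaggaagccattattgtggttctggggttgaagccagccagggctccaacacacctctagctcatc

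The Inhbb stretch was 68% G and C with 21 CG dinucleotides, against a median of 52.4% G and C over the 32851 promoters of the table. The stretches of Tdgf1 and Nodal were 42% and 53.2% G and C, with 7 and 3 CG dinucleotides. CAGAC or its complement GTCTG occurred in that of Tdgf1, 113 to 109 bases before the start, and in those of 42.2% of all promoters. The FoxH1 motif AATNCACA (3.18% of all promoters) and the STAT motif TTCNNNGAA (7.02%), searched on both strands, had no match in any of the 3. Of the 10 genes, 6 were in the table, and Acvr2b was the other one of these with a SMAD match, while Gdf3, Lefty1, Lefty2 and Fst were not in it. A match is a string of letters and not a shown binding site.

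Nodal itself has 2 probe sets. At the brighter one, 1422058_at, the differentiating arrays read 10.76, 10.57 and 10.46 and the undifferentiated arrays 9.83, 10.27 and 10.32. All differentiating arrays were above all undifferentiated arrays, the nearest being 10.46 and 10.32. Nodal was thus 1.37-fold higher (log2 fold change 0.46, 95% interval 0.06 to 0.86), which did not pass (adjusted p = 0.296 from limma). At 1422057_at it was similar, 0.42 (95% interval -0.17 to 1.02, adjusted p = 0.532), with undifferentiated replicate 3 (8.85) inside the differentiating range of 8.79 to 9.00. The low undifferentiated mean rested in part on replicate 1, at 7.87 against 8.66 and 8.85. Without that array the differences were 0.30 at the brighter and 0.13 at the other probe set.

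Gdf3, a Nodal-like ligand of ES cells and the epiblast, read 9.61, 10.22 and 10.18 on the differentiating and 9.70, 10.17 and 10.44 on the undifferentiated arrays of its brightest probe set. The groups overlapped throughout. Its log2 fold changes at both probe sets, -0.10 (95% interval -0.67 to 0.47) and -0.05 (95% interval -0.62 to 0.51), were smaller than the SDs of either group (0.22 to 0.45). The sign of each turned with single arrays left out, and that of the second also with a further quantile normalization, so no direction is given.

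The secreted inhibitors were all higher on average in differentiating cells, and none passed. Lefty1, the feedback inhibitor of Nodal, read 12.84, 12.50 and 12.40 on the differentiating and 10.35, 11.14 and 11.74 on the undifferentiated arrays. The differentiating arrays lay close together and above every undifferentiated array, which spread over 1.39 on the log2 scale. The log2 fold change was 1.50 (2.83-fold higher, standard error 0.34, 95% interval 0.70 to 2.30) with an adjusted p of 0.123 from limma. It kept its direction in all 14 alternatives, from 1.14 to 1.83, and passed in 2 of them, with a trended robust variance (adjusted p = 0.0987) and with array weights (adjusted p = 0.0218), the range over all alternatives being 0.0218 to 0.4.

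Lefty2, the paralog of Lefty1, was measured at 1 probe set. It read 9.71, 8.66 and 9.00 on the differentiating and 8.17, 8.44 and 8.88 on the undifferentiated arrays. Undifferentiated replicate 3 lay above differentiating replicate 2, so the groups overlapped. The difference, 0.63 on the log2 scale (95% interval -0.09 to 1.34, adjusted p = 0.431 from limma), rested in part on differentiating replicate 1, without which it was 0.33.

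Fst, the gene of the activin-binding protein follistatin, varied widely, and its probe set 1434458_at had the largest standard error of the 19 (0.73). At its brightest probe set, 1421365_at, it read 6.48, 6.61 and 7.41 on the differentiating and 5.42, 6.67 and 6.02 on the undifferentiated arrays. Undifferentiated replicate 2 lay within the differentiating range. The log2 fold changes were 0.79 (95% interval -0.07 to 1.66, adjusted p = 0.409 from limma) there and 1.10 (95% interval -0.64 to 2.84, adjusted p = 0.577) at 1434458_at, where undifferentiated cells spanned 4.29 to 6.96. Without undifferentiated replicate 1 they were 0.49 and 0.35, and without differentiating replicate 3 they were 0.50 and 0.59. The value of 1434458_at was 1.69 without undifferentiated replicate 2. Fst is also made by fibroblasts. Of 7 fibroblast markers none passed, 6 had a log2 fold change above 0, and their mean level was 5.71 to 6.28 on the differentiating arrays and 5.34, 5.91 and 5.39 on undifferentiated replicates 1, 2 and 3. Higher on every differentiating array were 3 of the 7, Dcn (0.66), Postn (0.43) and Lum (0.22), the dimmest, against 10% of all probe sets. Col1a2, the brightest, had 1.38 with overlapping groups (mean values of 8.21 and 6.83). The part of other cells in the Fst values was not tested.

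**Figure D3:**
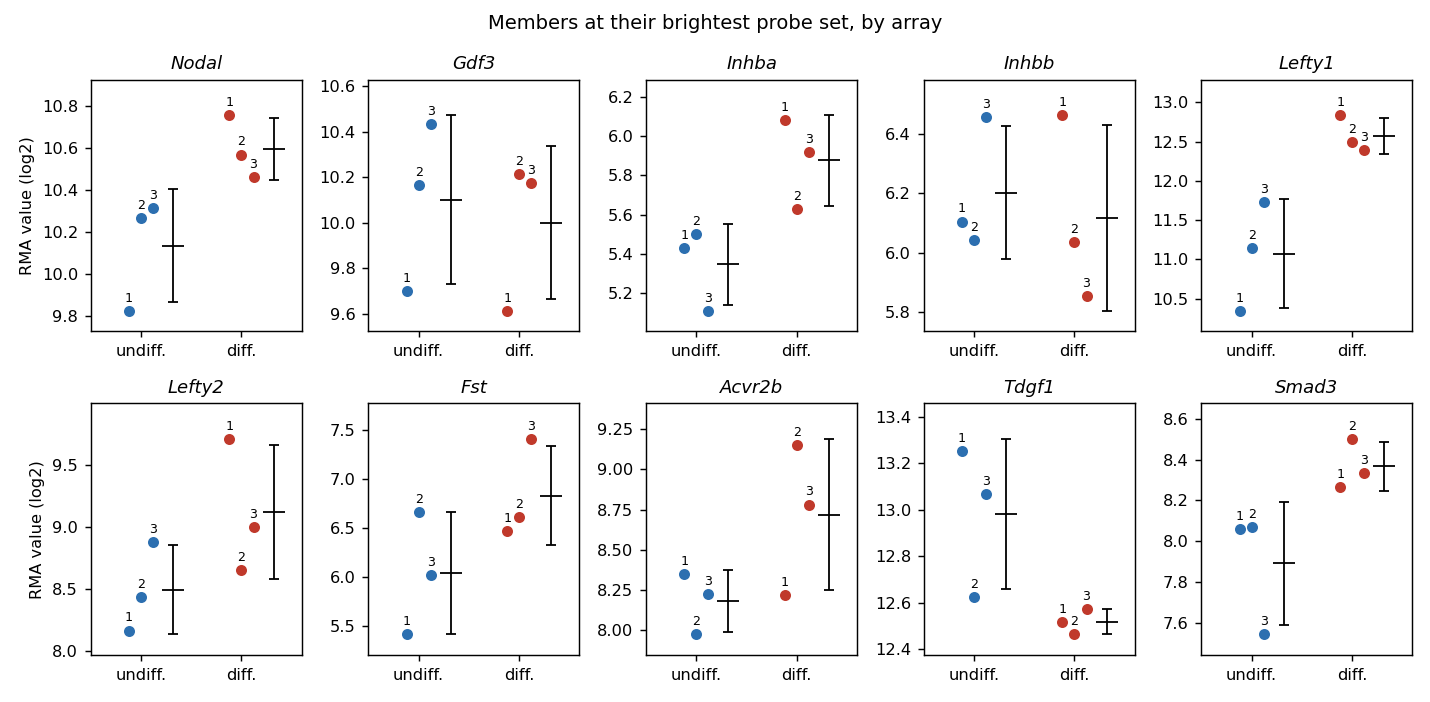
Log2 RMA values (vertical axis, scaled for each gene on its own and not from 0) of the 10 genes at their brightest probe sets on each array, undifferentiated in blue and differentiating in red; small numbers name the replicates, and the black mark beside each group gives its mean with the SD (n = 3). No overlap is seen for Nodal, Inhba, Lefty1, Tdgf1 and Smad3, and undifferentiated replicate 1 is the lowest of its group for 5 of the 10 genes.

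The receptors ran in opposite directions, again without passing. Tdgf1, the co-receptor gene and a marker of pluripotent cells, read 12.52, 12.47 and 12.57 on the differentiating and 13.25, 12.63 and 13.07 on the undifferentiated arrays. The differentiating arrays were within 0.11 of each other and below all undifferentiated arrays, of which replicate 2 came nearest. Its log2 fold change was -0.46 (1.38-fold lower, 95% interval -0.88 to -0.05, adjusted p = 0.307 from limma). Its mean ranked at percentile 99.2 of the array. It passed without undifferentiated replicate 2 (log2 fold change -0.64, adjusted p = 0.0997) and with array weights (adjusted p = 0.0835), and the adjusted p reached 0.602 in others.

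Acvr2b, a type II receptor gene for activins and Nodal, has 3 probe sets, all with higher means in differentiating cells. At 1439856_at the arrays read 8.57, 8.55 and 8.42 in differentiating and 8.04, 7.58 and 8.16 in undifferentiated cells. These did not overlap (log2 fold change 0.59, 95% interval 0.18 to 0.99, adjusted p = 0.204 from limma). At the brightest, 1419140_at, they overlapped because differentiating replicate 1 read 8.22, against 9.15 and 8.78 in replicates 2 and 3 and 7.97 to 8.35 in undifferentiated cells. The log2 fold change there was 0.54 (95% interval -0.04 to 1.11), and 0.32 without differentiating replicate 2. The dimmest, 1440525_at, had 0.17 (95% interval -0.13 to 0.47), and 0.10 without the same array. All 3 passed with array weights, which give differentiating replicate 1 a weight of 0.298 and replicate 2 a weight of 5.11.

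Smad3, which carries the signal of Nodal, activin and TGF-beta receptors to the nucleus, read 8.27, 8.50 and 8.33 on the differentiating and 8.06, 8.07 and 7.54 on the undifferentiated arrays of its brightest probe set, 1454960_at. The groups were apart, with undifferentiated replicate 3 the lowest. The log2 fold change was 0.48 (1.39-fold higher, 95% interval 0.06 to 0.89, adjusted p = 0.296 from limma), and 0.30 without undifferentiated replicate 3. Both other probe sets overlapped, with 0.29 at 1450472_s_at (95% interval -0.22 to 0.80) and 0.04 at 1450471_at (95% interval -0.28 to 0.35), and the sign of the last turned after median centring and a further quantile normalization. At 1450472_s_at the value was 0.52, 0.16 and 0.17 without differentiating replicates 1, 2 and 3 in turn.

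Within the groups, the arrays were ordered alike for several of these genes, which was not tested. Undifferentiated replicate 1 had the lowest and replicate 3 the highest value of its group at the brightest probe sets of Nodal, Gdf3, Lefty1 and Lefty2. Differentiating replicate 1 had the highest value of Nodal, Lefty1 and Lefty2 in its group and the lowest of Gdf3. This array also had the highest pluripotent marker level (10.88, against 10.20 and 9.54) and the lowest primed epiblast marker level (8.81, against 9.53 and 9.52) of the differentiating arrays. Its array weight (0.298) and that of undifferentiated replicate 1 (0.346) were the lowest of all arrays. Visceral endoderm expresses Nodal and Lefty1 too. Of 11 primitive and visceral endoderm markers none passed at the brightest probe set and 1 did at another, 9 had a log2 fold change above 0, and their mean level was 5.38 to 5.76 on the differentiating and 5.05 to 5.32 on the undifferentiated arrays, with 5.38 on differentiating replicate 1. Their part in the Nodal and Lefty1 values was not tested. Higher on every differentiating array were 2 of the 11, Dab2 (log2 fold change 1.96) and Pdgfra (0.53), against 10% of all probe sets. Cubn had 1.89 with overlapping groups (4.75, 7.17 and 7.63 on the differentiating arrays against 4.30 to 4.98). Dab2, Pdgfra and Cubn were the 3 of the 11 below an unadjusted p of 0.05, against 17.2% of all genes. The primitive endoderm transcription factor genes Gata6, Gata4, Sox17 and Sox7 had log2 fold changes from -0.03 to 0.11, and their mean values of 4.68 to 5.34 ranked at percentiles 36 to 45.6 of the array.

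Of 53 other genes of the pathway, listed by role, 50 were measured, and at the brightest probe set none was higher and none lower by limma, against 0.797% and 1.45% of all genes. At an unadjusted p under 0.05 there were 9 of 50, against 17.2% of all genes. Groups were apart at 5 of the 50 with the differentiating arrays above and at 5 with them below. Over all probe sets these shares were 10% and 10.3%, and the counts of separated genes are near them. The shares over genes at their brightest probe set were not computed. Their median log2 fold change was 0.09, and that of all genes was 0.02. Values for the genes of largest difference by role follow.

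None of 7 other ligand genes passed, and Tgfb2 and Tgfb1 had the largest differences, 1.35 (95% interval -0.92 to 3.62) and 0.26. Tgfb2 was spread widely in undifferentiated cells, at 3.50, 7.59 and 5.36. None of 10 other receptor and co-receptor genes passed either, led by the TGF-beta receptor genes Tgfbr2 (0.52, 95% interval -0.74 to 1.79) and Tgfbr3 (0.37). Of 3 convertase genes, whose enzymes cut precursor proteins, none passed. Pcsk6 was lower on each differentiating array, with 7.43, 7.10 and 7.04 against 8.56, 7.59 and 7.76 in undifferentiated cells (log2 fold change -0.78, 95% interval -1.41 to -0.15, adjusted p = 0.262 from limma). Furin, another of these, had 0.31 (95% interval -0.14 to 0.76).

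None of 6 other secreted inhibitor and binding protein genes passed. The largest differences were those of Ltbp1 (0.49), which binds latent TGF-beta, and the follistatin-like gene Fstl1 (0.40). Among 14 genes of other SMADs and nuclear partners none passed. Smad6, an inhibitory SMAD of BMP signalling, was lower on each differentiating array (log2 fold change -0.66, 95% interval -1.21 to -0.11, adjusted p = 0.275 from limma). Foxh1, the nuclear partner of SMAD2 and SMAD3, was higher on each, at 8.64, 9.06 and 8.90 against 8.57, 8.30 and 8.14 (0.53, 95% interval 0.13 to 0.92, adjusted p = 0.235).

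None of 13 measured target genes passed, with 8 log2 fold changes above 0 and 5 below. Groups were apart at 2 genes with the differentiating arrays above and at 2 with them below, against 10% and 10.3% of all probe sets. Otx2, a homeobox gene of the epiblast, and Fgf8 had the largest differences, 1.77 (95% interval 0.52 to 3.02, adjusted p = 0.214 from limma) and 1.73 (95% interval 0.82 to 2.65, adjusted p = 0.122), and the groups did not overlap for either. Otx2 was also among the primed epiblast markers used above. The primitive streak genes Gsc, Mixl1 and Eomes, Hhex of the anterior endoderm, and Smad7 were picked out after their values were seen. Gsc, Mixl1 and Eomes had log2 fold changes of -0.12, 0.01 and 0.14 with overlapping groups, and the mean of Gsc ranked at percentile 10.3 of the array. Hhex was lower on every differentiating array, at 7.11, 6.92 and 6.77 against 7.88, 7.43 and 7.65 (log2 fold change -0.72, 95% interval -1.09 to -0.34, adjusted p = 0.12 from limma). Smad7, also counted among the other SMADs, was lower on every differentiating array too. It read 8.25, 8.24 and 8.31 against 8.44, 8.59 and 8.75 (log2 fold change -0.33, 95% interval -0.61 to -0.04, adjusted p = 0.303 from limma).

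**Figure D4:**
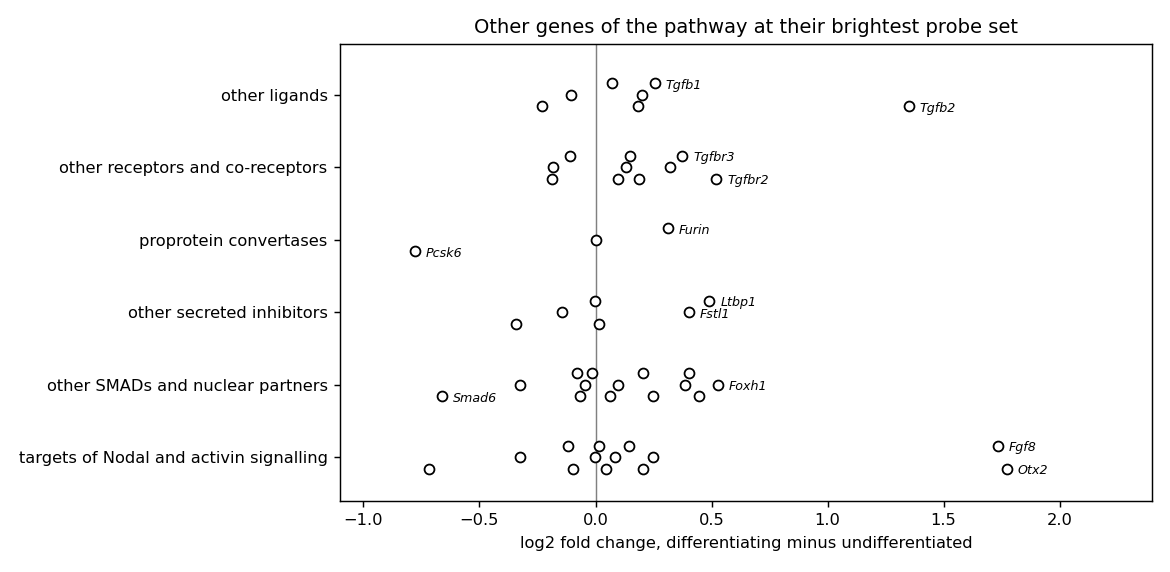
Log2 fold change (horizontal axis, differentiating minus undifferentiated) of the other measured genes of the pathway at their brightest probe sets, 1 point per gene in each role (vertical axis), with the 2 of largest size named in each role; the vertical offset only separates points. All points are open because none has an adjusted p under 0.1, and Otx2 (1.77), Fgf8 (1.73) and Tgfb2 (1.35) lie farthest to the right.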

How the data were processed

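RNA from 6 samples of FACS-sorted E14TG2a cells was hybridised to Affymetrix mouse expression arrays, 3 per group. The deposited log2 values, 1 column per array, were made by the authors with RMA (affy library, version not stated in what was read here), which corrects background, applies quantile normalization across arrays and summarises each probe set. Columns carry the sample names. No depth applies, and the number of arrays limits the precision. Median values per array were 5.54 to 5.65, the highest being that of differentiating replicate 1. Its quartiles were 4.26 and 7.63, against lower quartiles of 4.07 to 4.10 and upper quartiles of 7.76 to 7.79 on the other arrays.

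After 64 controls were removed from the 45101 probe sets, 45037 were fitted by lmFit and eBayes of limma 3.58.1 under R 4.3.3 (Benjamini-Hochberg adjustment over all of them, passing at an adjusted p under 0.1), without a block, since the study's methods name none. The methods' further threshold, a log2 fold change of at least 1, left the count of passing members as it was. Names come from the platform annotation (34945 probe sets with 1 symbol, 18193 genes). RefSeq changed 0 member symbols. A gene outside the 10 is given by its brightest probe set. Named genes are all 10 members, of each role the passing genes or otherwise the 2 of largest difference, Tpbg, and passing markers. Markers and target genes named beyond this rule (Gata6, Gata4, Sox17, Sox7, Dab2, Pdgfra, Cubn, Krt8, Krt18, Pax6, Nes, Dcn, Postn, Lum, Col1a2, Gsc, Mixl1, Eomes, Hhex and Smad7) were chosen after their values were seen. Members and lists were chosen with earlier results of these data known. The fit was tested on simulated data. T, Gdf1 and Mstn of the pathway lists had no single-symbol probe set among those used.

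Alternatives were a replicate block, the dimmest 1 in 3 probe sets left out, control probe sets kept, array weights, a trended robust variance, a further quantile normalization, centring on array medians, an adjusted p under 0.05, other rules for probe sets per gene, and each array left out. Leaving out differentiating replicate 1 and undifferentiated replicate 2 together was added after seeing the data.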

Additional observations from a re-analysis of the deposited data

How the results depend on the processing

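The count of passing member probe sets, 1 in the reported fit, was 2 with a trended robust variance (2 genes) and 8 with array weights (5 genes), and 0 to 2 with 1 array left out (0 to 2 genes). It was 0 when replicate 2 or 3 of the differentiating or replicate 3 of the undifferentiated cells was left out, and 2 without undifferentiated replicate 2. Over the whole array the first 3 of these fits passed 0 probe sets higher and 0, 3 and 1 lower, so 0 members says little about the members, and the last passed 753 higher and 738 lower. No member gene passed (0) when only brightest probe sets were used, since Inhbb passed at the one that was dimmer by the mean over all arrays. That probe set, 1426858_at, was the brighter of both in undifferentiated cells (7.92 against 6.20) and the dimmer in differentiating cells (4.06 against 6.12). Array weights called 3579 probe sets higher and 3595 lower over the whole array, against 258 and 462 in the reported fit, so the members' 8 stand beside a much larger total. Of the other pathway genes, 0 in the reported fit, 1 passed after median centring, 11 with array weights, 2 with differentiating replicate 1 and undifferentiated replicate 2 both left out, and 0 to 1 with 1 array left out. Signs turned for small values that did not pass. With 1 array left out, Gdf3 1449288_at ran from -0.30 to 0.094, Gdf3 1460057_at from -0.30 to 0.13, Inhba 1458291_at from -0.15 to 0.0027, Inhbb 1426859_at from -0.26 to 0.047 and Smad3 1450471_at from -0.042 to 0.12. Both Gdf3 probe sets were above 0, at 0.13 and 0.12, with differentiating replicate 1 and undifferentiated replicate 2 both left out. After a further quantile normalization Gdf3 1460057_at was 0.0086 and Smad3 1450471_at was -0.012, and the latter was -0.0068 after median centring. The causes were not tested. Of 265 values of single probe sets under the alternatives, 238 kept direction and side of the threshold, 9 newly passed, 3 no longer passed and 15 changed sign. Same-numbered replicates did not all deviate together (correlations of 0.21, -0.11 and 0.11), so the numbers were not taken as pairs. With the replicate number as a block, 1 member probe set, 1 member gene and 0 other pathway genes passed, and 265 probe sets were higher and 388 lower over the array.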
